A study of Rattus norvegicus with 9 samples.

Results

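Islets of rats that had ever received rosiglitazone were compared with islets of rats that never had. All 9 arrays of the study enter: the 6 exposed arrays are the 3 treated and 3 withdrawal arrays together, and the 3 untreated arrays are the other side. Every group was male Zucker Diabetic Fatty rats, homozygous fa/fa for a defective leptin receptor and kept on Purina 5008 feed, and no lean or normoglycaemic group was hybridised among these arrays. Of 24 rats randomised at 5 weeks of age, the treated group ate powdered rosiglitazone tablets at 3 mg per kg body weight until sampling at 9 weeks. Rats of the withdrawal group were taken off the drug for 2 weeks and sampled at 11 weeks, and the untreated group was sampled at 13 weeks. Both exposed groups were thus younger than the untreated rats, and exposure and age cannot be told apart. Withdrawal rats were also older than treated rats, so stopping the drug and age cannot be told apart between these groups either. Values are log2 intensities per probe set, and a difference is the exposed minus the untreated mean on that scale, with negative values lower in exposed islets.

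Rosiglitazone is a thiazolidinedione that activates the nuclear receptor PPAR gamma, mostly in adipose tissue, and improves insulin sensitivity. Male fa/fa rats of this strain become hyperglycaemic as their islets fail with age. In beta cells, glucose metabolites activate the related transcription factors ChREBP and MondoA, which switch on genes such as Txnip and Arrdc4. The sterol-regulated transcription factor SREBP2 switches on the genes of cholesterol synthesis when sterols are low.

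Genes of both kinds were lower in exposed islets, and 3 of their promoters are shown because they hold the letters that these regulators or their partners are known to bind. The windows run from 250 bases before to 50 after the start of the gene, 5′ to 3′ on the gene's strand, from RefSeq on assembly GRCr8. In Arrdc4 (chr1:131793376-131793675, minus strand) the capitals mark the E-box CACGTG and 6 CCAAT boxes. In Rgs16 (chr13:68437870-68438169, plus strand) they mark a pair of E-box-like sequences 5 bases apart, searched as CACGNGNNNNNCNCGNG. In Idi1 (chr17:66547475-66547774, minus strand) they mark 2 CCAAT boxes, the letters bound by NF-Y.
Arrdc4: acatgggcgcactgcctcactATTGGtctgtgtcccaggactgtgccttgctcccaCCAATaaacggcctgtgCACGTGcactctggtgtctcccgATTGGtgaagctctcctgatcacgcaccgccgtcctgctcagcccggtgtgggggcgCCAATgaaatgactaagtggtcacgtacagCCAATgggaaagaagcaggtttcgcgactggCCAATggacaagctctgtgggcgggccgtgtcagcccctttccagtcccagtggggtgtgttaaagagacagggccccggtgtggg
Rgs16: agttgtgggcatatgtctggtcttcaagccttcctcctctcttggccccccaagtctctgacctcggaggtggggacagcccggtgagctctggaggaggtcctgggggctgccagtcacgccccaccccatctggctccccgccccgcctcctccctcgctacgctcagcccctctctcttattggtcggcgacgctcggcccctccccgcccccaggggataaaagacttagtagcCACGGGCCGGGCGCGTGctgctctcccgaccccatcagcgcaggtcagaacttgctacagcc
Idi1: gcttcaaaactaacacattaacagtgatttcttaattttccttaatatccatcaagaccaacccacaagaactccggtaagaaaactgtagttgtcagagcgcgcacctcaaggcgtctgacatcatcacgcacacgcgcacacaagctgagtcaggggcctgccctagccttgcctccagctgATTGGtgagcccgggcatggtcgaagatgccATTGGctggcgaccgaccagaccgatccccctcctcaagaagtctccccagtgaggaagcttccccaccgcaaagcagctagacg
All motifs were searched on both strands, an E-box can also be the first part of the spaced pair, and CACGTG and CCAAT cannot overlap. CACGTG was present in 6.63% of 27457 promoters and CCAAT in 37.7%, while the spaced pair was present in 0.324%. Only 13 promoters, 0.0473%, held at least as many CCAAT boxes as Arrdc4. Of the 52 named genes that were called in both exposed groups, 42 had a promoter in the table: 7 of them held CACGTG, 23 held CCAAT and 1, Rgs16, held the spaced pair. The sterol element TCACNCCAC was present in 1.15% of promoters and in 0 of these 42. A match is a description of letters, not a binding site.

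With limma across all 31042 probe sets, 286 differed between exposed and untreated islets at an adjusted p under 0.05, which is 0.921% of those tested, 100 higher (0.322%) and 186 lower (0.599%), so that 35.0% of calls were higher. The 6 exposed and 3 untreated arrays did not overlap in 1314 probe sets (4.23%). On the deposited values without quantile normalization the count was 144, with 59.7% higher, and with arrays centred on their medians it was 128, with 57.8% higher, so the balance between rises and falls depended on the scaling. Against the same 3 untreated arrays, 4391 probe sets (14.1%) were called in treated islets and 73 (0.235%) in withdrawal islets. The number called in both and in 1 direction was 63 (0.203%): 57 lower (0.184%) and 6 higher (0.0193%). Both comparisons use the same untreated arrays, so an untreated value that is off in 1 array shifts both. The 57 lower probe sets had a median pooled difference of -0.99 and a range from -4.17 to -0.49. Fitting the 6 exposed arrays with 1 common term, which takes the difference between treated and withdrawal islets as noise, called 44 probe sets, 39 of them among the 63.

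**Figure D1:**
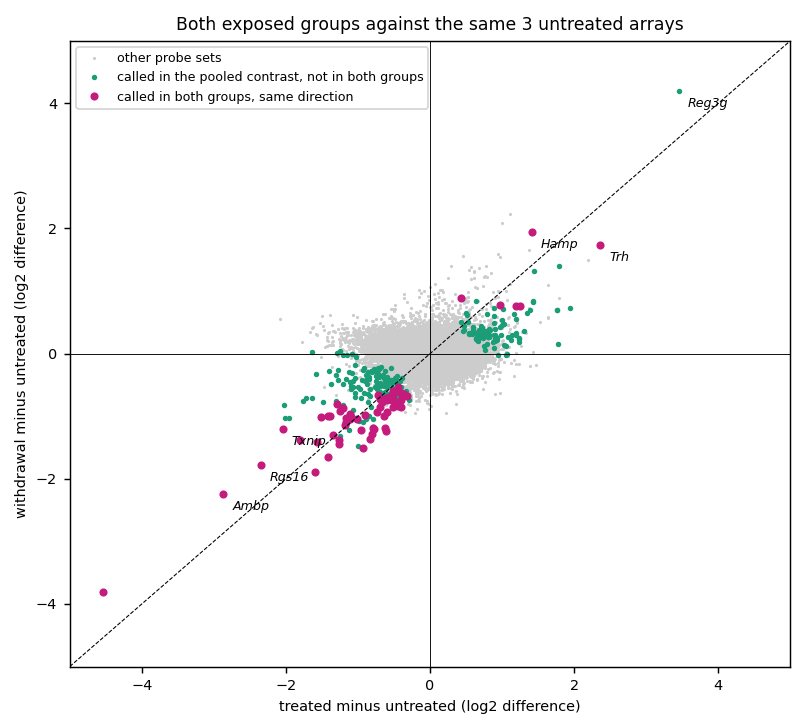
Each point is 1 probe set, placed by its log2 difference from untreated islets in treated (horizontal) and withdrawal (vertical) islets, with coloured points for those called in both or in the pooled contrast and labels for named genes. The 57 probe sets called lower in both lie at the lower left and the 6 called higher in both at the upper right; both axes use the same 3 untreated arrays.

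The arrays were not equally alike. Mean correlation with the other arrays of the same group was 0.977 to 0.985 for treated, 0.993 to 0.994 for withdrawal and 0.991 to 0.993 for untreated arrays, and limma gave treated replicate 1 an array weight of 0.289, the lowest. The pooled count was 1061 without treated replicate 1 and 405 without treated replicate 2. It was 149 without treated replicate 3, 173, 110 and 137 without withdrawal replicates 1, 2 and 3, and 73, 101 and 90 without untreated replicates 1, 2 and 3. By probe set, 23 of the 63 were called in both groups in each of the 9 fits that left out 1 array, and 15 of these 23 also on the deposited values. All 15 were lower in exposed islets. The insulin genes were at the top of the scale (Ins2 at 14.2 to 14.25 on exposed and 14.16 on each untreated array), where quantile normalization leaves ties. The 23 acinar markers were also bright, though below Ins2, at 12.8 to 13.2 averaged over the list on each array.

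The clearest falls were in a secreted protein, a signalling brake and a redox regulator. Ambp, which encodes the precursor of alpha-1-microglobulin and bikunin, measured 6.22, 6.02 and 6.22 on the treated, 6.91, 6.58 and 6.85 on the withdrawal and 8.86, 9.24 and 8.96 on the untreated arrays. No exposed array came near an untreated one, but a lack of overlap was part of the naming rule for Ambp, Rgs16 and Txnip and adds no support. The difference for Ambp was -2.55 ± 0.11 (SE, adjusted p = 1.02e-06), 5.87-fold lower. Rgs16, a brake on G protein signalling that glucose induces in beta cells, measured 7.2, 7.46 and 7.52 on the treated, 7.74, 7.97 and 8.2 on the withdrawal and 9.86, 9.58 and 9.79 on the untreated arrays. It fell 4.17-fold, by 2.06 on the log2 scale (adjusted p = 1.43e-05). Txnip, the thioredoxin-binding protein that glucose induces, measured 9.98, 10.3 and 10.16 on the treated, 10.9, 10.98 and 11.08 on the withdrawal and 12.32, 12.12 and 12.14 on the untreated arrays. The difference was -1.63 ± 0.1 (SE, adjusted p = 1.43e-05), 3.09-fold, and withdrawal islets lay nearer the untreated level than treated islets did, by 0.84 (adjusted p = 0.00126). Withdrawal islets also lay nearer for Ambp, by 0.63 (adjusted p = 0.00706), and for Rgs16, by 0.58 (adjusted p = 0.0131). The probe set 1370299_at, for which no gene is listed here, had the largest difference of the 63, -4.17 ± 0.16 (SE, adjusted p = 4.51e-07), from 11.12, 11.16 and 10.81 on untreated arrays to 6.0, 6.66 and 6.82 on treated and 7.24, 7.14 and 7.31 on withdrawal arrays.

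**Figure D2:**
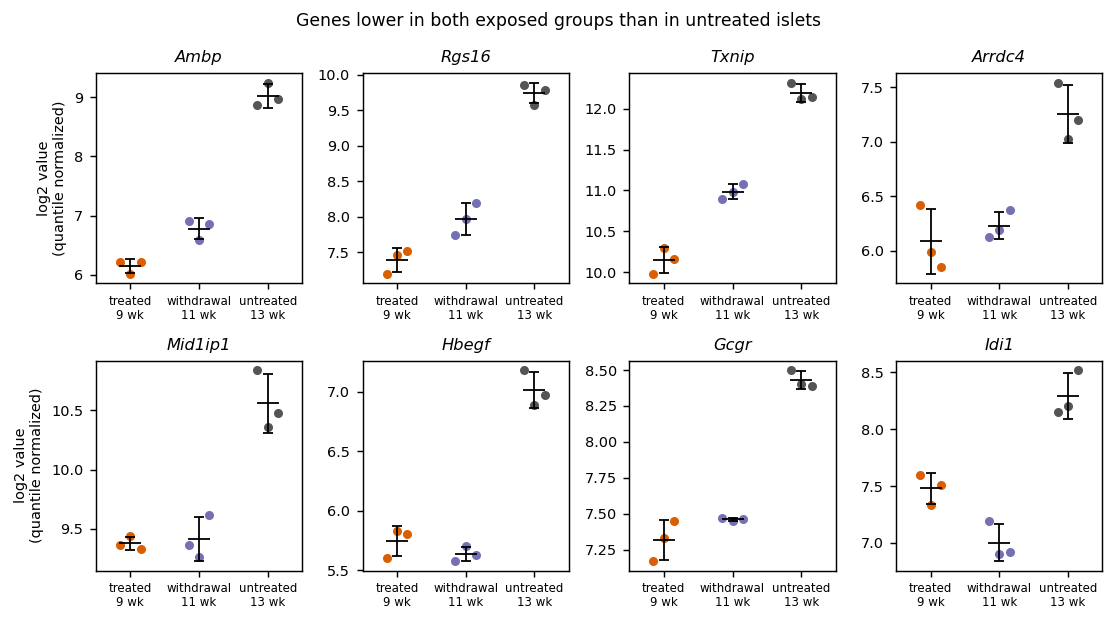
Quantile-normalized log2 intensity of 8 genes that fell in both exposed groups, 1 point per array with treated, withdrawal and untreated arrays in columns and a black bar for the mean ± SD of the group. In each panel every exposed array lies below every untreated array. A rule that asked for this named all of these genes but Gcgr and Idi1, so it adds no support. Gcgr was added to the drawing after its values were seen.

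Other genes of the glucose-responsive list fell with these. The list has 18 measured members that ChREBP or MondoA are known to regulate: 5 fell in exposed islets (129 of 14217 genes, 0.907%, fell) and 0 rose (0.373% of genes rose), with a list median of -0.38 against 0.002 over all genes, and the other 13 did not pass the test. On the deposited values 4 of the 18 fell. Arrdc4, an arrestin-like protein related to Txnip that lowers glucose uptake, measured 6.42, 5.99 and 5.85 on the treated, 6.13, 6.19 and 6.37 on the withdrawal and 7.54, 7.02 and 7.2 on the untreated arrays, a difference of -1.1 ± 0.14 (SE, adjusted p = 0.00438). Mid1ip1, an activator of fatty acid synthesis through acetyl-CoA carboxylase, measured 9.36, 9.44 and 9.33 on the treated, 9.36, 9.26 and 9.62 on the withdrawal and 10.84, 10.36 and 10.48 on the untreated arrays, a difference of -1.17 ± 0.12 (SE, adjusted p = 0.000836), almost equal in treated (-1.18) and withdrawal (-1.15) islets. Klf10, a transcription factor, fell by 0.62 but was uncalled on the deposited values (adjusted p = 0.147). Acly, Pklr and Gpd1, the citrate lyase, the liver-type pyruvate kinase and the glycerol phosphate dehydrogenase of this list, had differences of -0.43, -0.49 and -0.34, with no overlap between exposed and untreated arrays, and did not pass the test. Mlxipl, which encodes ChREBP itself, had -0.44, and Bhlhe40 and Fasn had 0.58 and -0.02. Over the whole list, 8 of 18 genes lay below all untreated arrays, where 3.24% of all genes did.

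Enzymes of cholesterol synthesis fell in both exposed groups. Of 19 measured members, 4 fell and 0 rose (0.907% of all genes fell and 0.373% rose), with a median of -0.29, and 5 fell in each group taken alone (8.04% of all genes fell in treated and 0.331% in withdrawal islets). Idi1, the isomerase that makes dimethylallyl diphosphate, measured 7.6, 7.33 and 7.51 on the treated, 7.19, 6.9 and 6.92 on the withdrawal and 8.15, 8.2 and 8.52 on the untreated arrays. The difference was -1.04 ± 0.11 (SE, adjusted p = 0.00125), and its other called probe set gave -0.92. Withdrawal minus treated islets was -0.48 (adjusted p = 0.0229), so withdrawal islets lay farther from untreated islets than treated islets did. Fdps and Fdft1, the farnesyl diphosphate and squalene synthases, fell by 0.52 and 0.71, and Msmo1, the methylsterol oxidase, by 0.77. On the deposited values 1 of the 19 genes was called, Idi1 at -0.9. Sqle, Cyp51 and Insig1, which share this regulation, had -0.43, -0.45 and -0.41 without passing the test. Zmpste24, the protease that processes the farnesylated lamin A precursor, was picked after its values were seen and had -0.77 ± 0.08 (SE, adjusted p = 0.00125); on the deposited values it was uncalled (adjusted p = 0.0782).

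Calls were few in the other metabolic lists. Eno1, a glycolytic enzyme, fell by 0.64 as 1 of 19 members of the glycolysis list, and Decr1, which oxidises unsaturated fatty acids, fell by 0.57 as 1 of 19 fatty acid oxidation genes, where 0.907% of all genes fell. Neither was called on the deposited values (adjusted p = 0.404 and 0.305). Pdhb, the beta subunit of pyruvate dehydrogenase E1, was chosen after its values were seen: it measured 8.94, 9.04 and 9.01 on the treated, 8.88, 8.8 and 8.86 on the withdrawal and 9.65, 9.59 and 9.55 on the untreated arrays, a difference of -0.67 ± 0.08 (SE, adjusted p = 0.00178), and it was not called on the deposited values, at -0.48 (adjusted p = 0.118). The 29 measured PPAR target genes held 0 rises and 0 falls by limma in the pooled comparison (0 higher and 5 lower at an unadjusted p under 0.05), with a median of -0.05. In treated islets 4 of them fell and 0 rose, where 8.04% and 7.01% of all genes did, with a median of -0.17. In withdrawal islets 0 were called by limma (0 higher and 4 lower at an unadjusted p under 0.05), with a median of -0.02. Pparg itself had 0.1. Pdk4, a usual reporter of PPAR activity, had a pooled 0.21. It measured 8.02, 8.07 and 7.84 on the treated, 7.2, 7.51 and 7.64 on the withdrawal and 7.61, 7.16 and 7.72 on the untreated arrays. The treated arrays all lay above the untreated ones, while the withdrawal and untreated ranges overlapped. Its difference was 0.48 in treated (adjusted p = 0.0643) and -0.05 in withdrawal islets (adjusted p = 0.969), neither called. Cd36 had -0.06, and its direction flips to 0.04 on the deposited values. Of 43 oxidative phosphorylation genes, none was called by limma (0 higher and 13 lower at an unadjusted p under 0.05), and the median of -0.11 changes sign to 0.07 on the deposited values.

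Hbegf, a ligand of the EGF receptor, was 1 of 18 genes of the MAP kinase and EGF receptor feedback list that fell. In this list 0 rose, with a median of -0.06, where 0.907% of all genes fell and 0.373% rose. Hbegf measured 5.6, 5.83 and 5.8 on the treated, 5.58, 5.7 and 5.63 on the withdrawal and 7.18, 6.89 and 6.97 on the untreated arrays and fell by 1.32 (adjusted p = 9e-05). Gcgr, the glucagon receptor, chosen after its values were seen, measured 7.17, 7.33 and 7.45 on the treated, 7.47, 7.45 and 7.46 on the withdrawal and 8.5, 8.4 and 8.39 on the untreated arrays and fell by 1.04. Matk, a kinase that phosphorylates Src family kinases, had -1.53 ± 0.14 (SE, adjusted p = 0.000407), with -1.42 in treated and -1.64 in withdrawal islets. Gpr6, an orphan receptor coupled to G proteins, had -1.27 ± 0.12 (SE, adjusted p = 0.000486) and Plcxd3, a phospholipase C-like protein, -1.19 ± 0.13 (SE, adjusted p = 0.00156), while Rprml, related to the cell cycle inhibitor Reprimo, had -1.35 ± 0.13 (SE, adjusted p = 0.000486). Spetex2l2 fell by 1.74, but it belongs to a family of near-identical copies whose probes cannot be assigned with certainty. Some genes had probe sets that disagreed: for Pfkfb3, 1390391_at had -1.49 and the brighter 1397082_at 0.06, and for Gnas, 1387906_a_at had -1.13 and the brighter 1369897_s_at -0.37, uncalled. Gnas and Pfkfb3 were picked after their values were seen.

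Rises in both exposed groups numbered 6 probe sets, and 0 of the 22 probe sets called in both groups on the deposited values were rises. Trh, the thyrotropin-releasing hormone that young beta cells make, measured 8.93, 8.21 and 8.85 on the treated, 8.05, 8.04 and 8.05 on the withdrawal and 5.88, 6.63 and 6.41 on the untreated arrays. The exposed arrays were all above the untreated, which the naming rule also asked for. Trh was 4.14-fold higher, a difference of 2.05 ± 0.18 (SE, adjusted p = 0.000342). It was larger in treated (2.36) than in withdrawal islets (1.74), and withdrawal minus treated islets was -0.62 (adjusted p = 0.0482). Sdf2l1, a chaperone partner in the endoplasmic reticulum, measured 10.47, 10.39 and 10.4 on the treated, 10.04, 9.89 and 9.88 on the withdrawal and 8.99, 9.24 and 9.3 on the untreated arrays, a rise of 1.0 ± 0.09 (SE, adjusted p = 0.000443). Serpinb1a, an inhibitor of neutrophil proteases, measured 10.02, 10.14 and 10.06 on the treated, 10.41, 10.62 and 10.56 on the withdrawal and 9.58, 9.76 and 9.6 on the untreated arrays, a rise of 0.65 ± 0.09 (SE, adjusted p = 0.0049), and it was higher still in withdrawal islets, by 0.46 (adjusted p = 0.00909). Hamp, the iron hormone hepcidin, measured 7.27, 5.98 and 6.9 on the treated, 6.73, 7.35 and 7.64 on the withdrawal and 5.05, 5.53 and 5.32 on the untreated arrays, a rise of 1.68 ± 0.26 (SE, adjusted p = 0.0127). Rgs4, chosen after its values were seen, rose by 0.98 on 1 probe set, but its other probe set had 0.61 (adjusted p = 0.074). The other, dimmer probe set of Serpinb1a had 0.45 and was uncalled by limma (adjusted p = 0.127).

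**Figure D3:**
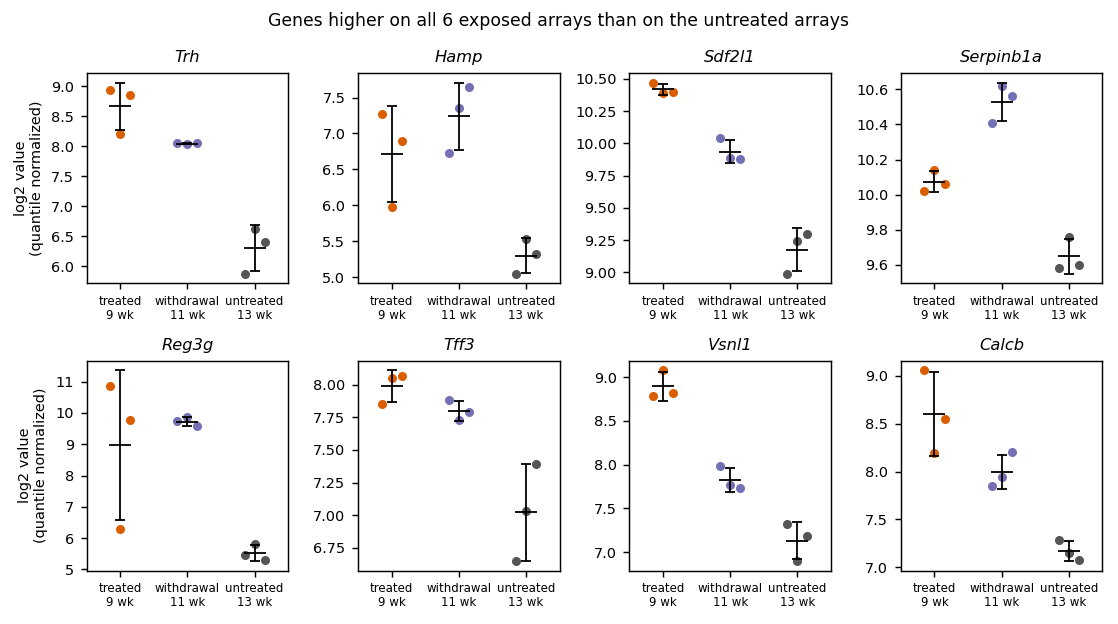
Quantile-normalized log2 intensity of 8 genes that were higher in exposed islets, 1 point per array in columns for treated, withdrawal and untreated arrays, with a black bar for the mean ± SD of each group. Trh, Hamp, Sdf2l1 and Serpinb1a were called in both groups; Reg3g in treated replicate 2 lies at 6.29, below the other 5 exposed arrays.

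Further genes rose in the pooled comparison without being called in withdrawal islets alone. Reg3g, an antibacterial lectin of stressed pancreas, measured 10.87, 6.29 and 9.78 on the treated, 9.73, 9.86 and 9.58 on the withdrawal and 5.45, 5.81 and 5.31 on the untreated arrays, a rise of 3.83 ± 0.72 (SE, adjusted p = 0.0316), and the call was lost in 7 of the 9 fits that left out 1 array, all but those without treated replicate 1 or 2, and on the deposited values (adjusted p = 0.0725). All 6 exposed arrays lay above the untreated ones, which the rule for naming Reg3g required. Tff3, a trefoil peptide of mucus, measured 7.85, 8.05 and 8.07 on the treated, 7.88, 7.73 and 7.79 on the withdrawal and 6.65, 7.03 and 7.39 on the untreated arrays and rose by 0.87. Of the 22 neuropeptide genes, 3 rose and 3 fell (limma, all genes: 0.373% rose, 0.907% fell). Calcb, which encodes beta-CGRP, rose by 1.12, and Nnat, the neuronatin that helps process insulin, by 1.23. Cartpt and Gal, the neuropeptides CART and galanin, fell by 1.22 and 1.26, and Npy, neuropeptide Y, fell by 0.75. On the deposited values 1 of the 22 fell: Gal kept the call, while Cartpt (adjusted p = 0.071) and Npy (adjusted p = 0.124) did not. Vsnl1, a neuronal calcium sensor, rose by 1.23, Tnfrsf11b, the osteoprotegerin decoy receptor, by 1.0, and Aass, the first enzyme of lysine breakdown, by 0.87. For each of these 3, all 6 exposed arrays were above all untreated arrays, as for 2.31% of all genes. The rule for naming them required this, so it adds no support. Each was nearer to untreated after withdrawal and was called in the pooled comparison in all 9 fits that left out an array. None of the 3 was called in withdrawal islets alone (adjusted p = 0.0717, 0.0764 and 0.0926) or with 1 term for the 6 exposed arrays (adjusted p = 0.274, 0.169 and 0.206). Pyy, the peptide YY of gut and islet cells, rose by 0.6.

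Stress and immune lists gave few calls. In the unfolded protein response list, 2 of 32 rose and 0 fell, where 0.373% of all genes rose and 0.907% fell, which is also the background for the pooled counts of the other stress and immune lists and of the cell cycle list. They were Sdf2l1 and Creld2, a chaperone-like protein, at 0.55, and Creld2 was uncalled on the deposited values (adjusted p = 0.0679). In the 26 stress and immediate early genes, none was called in the pooled comparison by limma (14 higher and 0 lower at an unadjusted p under 0.05, median 0.42). In treated islets 10 rose and in withdrawal islets 0, where 7.01% and 0.0281% of all genes rose, and 7 were higher in withdrawal islets at an unadjusted p under 0.05. The withdrawal arrays were split: the list median minus the untreated mean was -0.04, 0.40 and 0.47 on replicates 1, 2 and 3. On the treated arrays it was 0.37 to 0.57. Fos, the AP-1 subunit, had 1.53 in treated and 0.5 in withdrawal islets. Of the 21 interferon-stimulated genes 2 fell, Ifit2, an antiviral RNA-binding protein, by 0.93 and Mx1, an antiviral GTPase, by 1.03; Ifit2 was uncalled on the deposited values (adjusted p = 0.0716). Nfkbia, the inhibitor of NF-kappa B, rose by 0.61 as 1 of 24 inflammatory mediators. Srxn1, which repairs peroxiredoxins, fell by 0.52 as 1 of 24 antioxidant genes, and Ccnd1, cyclin D1, fell by 0.65 as 1 of 30 cell cycle genes. Both were uncalled on the deposited values (adjusted p = 0.249 and 0.31).

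Pooled values of beta cell genes average over exposed groups that differed from each other. Of 21 beta cell genes, none was called in the pooled comparison by limma (6 higher and 4 lower at an unadjusted p under 0.05), and the median was 0.04. In treated islets 5 rose and 1 fell, where 7.01% and 8.04% of all genes did, with a median of 0.28. In withdrawal islets 0 were called by limma (1 higher and 5 lower at an unadjusted p under 0.05), with a median of -0.12. Withdrawal minus treated, 9 were lower and 1 higher, where 13.0% and 12.3% of all genes were. Gcg, glucagon, had a pooled 0.03. Sst, somatostatin, had a pooled 0.16, uncalled, with 0.77 in treated (adjusted p = 0.00328) and -0.45 in withdrawal islets (adjusted p = 0.203). Slc2a2, the glucose transporter, had 0.0 and measured 11.62, 11.84 and 12.11 on the treated, 11.67, 11.55 and 11.45 on the withdrawal and 11.67, 11.72 and 11.73 on the untreated arrays. Pdx1 had -0.07, positive on the deposited values (0.08), with 0.26 in treated and -0.4 in withdrawal islets. Mafa had -0.34, measured as 11.22, 11.0 and 11.07 on the treated, 10.84, 10.73 and 10.81 on the withdrawal and 11.41, 11.19 and 11.27 on the untreated arrays. Of 28 granule genes Scg2, a granin, and Cplx2, a complexin that clamps vesicle fusion, rose by 0.65 and 0.72, and Scg5, the chaperone of the convertase PC2, fell by 0.52, where 0.373% of all genes rose and 0.907% fell. Scg5 was uncalled on the deposited values (adjusted p = 0.304).

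Markers of other cell types also varied between the arrays. The 23 macrophage genes averaged 6.86 to 8.14 on treated, 8.21 to 8.31 on withdrawal and 7.62 to 7.69 on untreated arrays, so the exposed arrays lay on both sides. By limma 0 of the 23 were called in the pooled comparison (4 higher at an unadjusted p under 0.05), and 11 were higher in withdrawal than treated islets, where 12.3% of all genes were. The 37 stellate and matrix genes averaged 8.26 to 9.26, 9.52 to 9.58 and 9.07 to 9.25 in the same order, with Fn1, fibronectin, as the 1 member that fell, by 1.42 (uncalled on the deposited values, adjusted p = 0.178). Between withdrawal and treated islets 24 of the 37 were higher after withdrawal, where 12.3% of all genes were. Fyb1, an adaptor of T cells and platelets, fell by 1.5 as 1 of 20 lymphocyte genes. In the pooled comparison 0.907% of all genes fell, which is the background for Fn1 and Fyb1. The 23 acinar and 16 duct genes held 0 calls by limma (3 acinar genes higher and 2 lower, 1 duct gene higher and 1 lower, at an unadjusted p under 0.05), and the 17 endothelial genes 0 (2 higher, 9 lower), with a median of -0.24. The 20 lymphocyte genes averaged 5.34 to 5.46 on treated, 5.71 to 5.87 on withdrawal and 5.70 to 5.79 on untreated arrays. Whether these shifts contributed to the falls and rises was not tested, and in such bulk samples fewer cells of a type and less RNA per cell cannot be told apart.

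**Figure D4:**
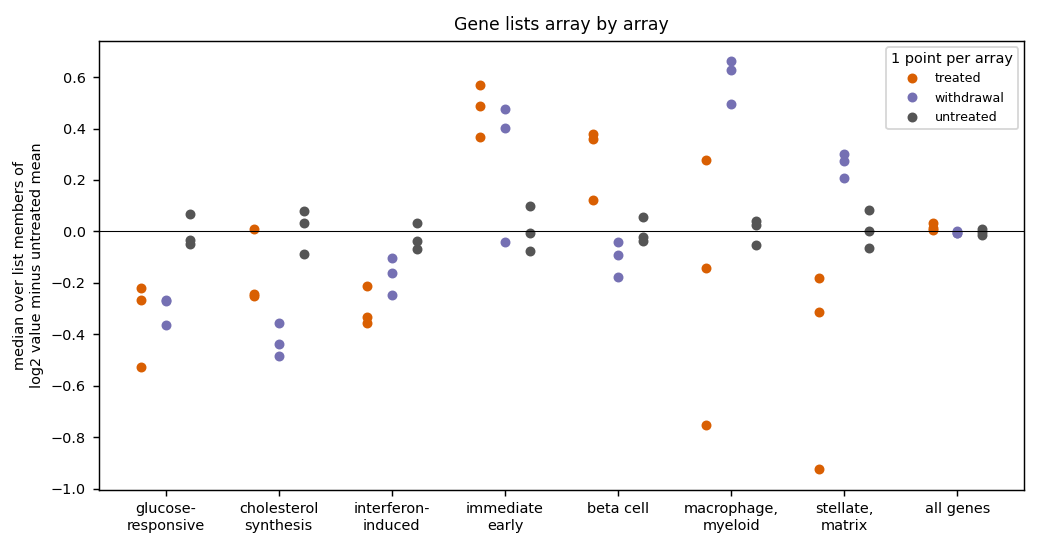
Median, over the members of 8 gene lists (all genes among them), of the log2 value minus the gene's untreated mean. There is 1 point per array, with treated, withdrawal and untreated arrays side by side. The glucose-responsive list lies at -0.53 to -0.22 on exposed and -0.05 to 0.07 on untreated arrays. The macrophage and matrix lists spread more on treated than on withdrawal or untreated arrays.

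Of the 63 probe sets, 22 also differed between withdrawal and treated islets (24.4% of all probe sets did), 11 nearer to the untreated level after withdrawal and 11 farther from it. Withdrawal rats were also nearer in age to the untreated rats than treated rats were, and whether age or stopping the drug moved these values was not tested. Txnip, Ambp, Rgs16 and Trh were among those nearer, and Idi1 and Serpinb1a among those farther. Fam151a, of unclear function, chosen after its values were seen, was farther too, with -0.63 in treated and -1.2 in withdrawal islets, and was uncalled in the pooled comparison on the deposited values (adjusted p = 0.0934). The other 41 did not pass the test between withdrawal and treated islets.

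Several pooled calls were lost when 1 array was left out. Without untreated replicate 1 the calls for Hamp, Serpinb1a, Tff3, Pyy, Cplx2, Scg5, Ccnd1, Fdps, Klf10 and Decr1 were lost, and without untreated replicate 3 those for Hamp, Nnat, Calcb, Pyy, Scg2, Scg5, Cplx2, Ccnd1, Npy, Fdps, Klf10 and Decr1. Klf10 and Decr1 were also lost without withdrawal replicate 2, and Decr1 without treated replicate 3. Without untreated replicate 2 the calls for Nnat, Calcb, Tff3, Scg2, Scg5 and Ccnd1 were lost. The highest adjusted p over the 9 fits that left out an array was 0.102 for Hamp, 0.0534 for Serpinb1a, 0.0903 for Nnat and 0.0599 for Calcb. The calls for Eno1, Creld2, Srxn1, Fn1 and Rora, a nuclear receptor of the clock list that had 0.65 (adjusted p = 0.0656 on the deposited values), held in 1 or 2 of the 9 fits. Those for Nfkbia and Mx1 held in 3 and that for Ifit2 in 4. The dimmer probe set of Ifit2 was also called in the pooled comparison with all arrays, at -0.65 (limma, adjusted p = 0.00497). The dimmer probe sets of Srxn1 (-0.48 and 0.25), Ccnd1 (-0.49 and -0.53), Rora (0.1) and Fdft1 (-0.34) were uncalled in the pooled comparison. Ambp, Rgs16, Txnip, Arrdc4, Mid1ip1, Hbegf, Idi1, Msmo1, Fdft1, Gcgr, Matk, Trh and Sdf2l1 were called in the pooled comparison in all 9. Klf10, Eno1, Decr1, Reg3g, Tff3, Calcb, Nnat, Cartpt, Gal, Npy, Pyy, Creld2, Ifit2, Mx1, Nfkbia, Srxn1, Ccnd1, Scg2, Cplx2, Fn1, Fyb1 and Rora were called in treated but not in withdrawal islets alone. With 1 term for the 6 exposed arrays, none of these 22 was called, and neither were Idi1 (adjusted p = 0.0512), Fdps, Msmo1, Hamp, Serpinb1a, Scg5, Fam151a and the called probe set of Rgs4.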

How the data were processed

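Islet RNA of 9 rat arrays, 3 per group, was analysed from the deposited table of 31099 probe sets. The deposited values were taken as log2 because all are positive and lie in the narrow range of log2 summaries. RMA and MAS5 are named in the submitters' processing notes; their roles and versions are not given in the sources used here. The 57 control probe sets were left out and the other 31042 quantile normalized between arrays, since the deposited standard deviations ran from 1.65 to 2.00. They were 1.84 to 2.00 on the treated arrays and 1.65 to 1.77 on the withdrawal and untreated arrays. The normalization thus also removed a difference in spread that followed the treated group. No filter on low values was applied. Genes were named from the platform annotation through the GRCr8 gene table: 20826 probe sets had 1 symbol (20758 matched by gene number, 2 by accession, 66 kept as annotated), 436 had several and 9780 were not listed. Each of 14217 genes was read from its brightest probe set by mean log2.

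Differences were fitted with limma 3.58.1 in R 4.3.3 (lmFit, eBayes, a term per group, exposed as the mean of treated and withdrawal) with Benjamini-Hochberg adjusted p over all 31042 probe sets, threshold 0.05. Per the labels, arrays are biological replicates; the extraction protocol speaks of equal RNA amounts from each of 3 replicates, and whether any RNA was pooled is not clear from it. The p-values measure the spread between these arrays, and the number of arrays limits precision. Array intensities have no read depth. Samples were not paired by replicate number in the fit. On simulated data of 31042 probe sets with 200 changed, the pooled contrast recovered 93% of changes of 1 and 100% of changes of 2, with 7 false calls. Calls in both groups recovered 79% and 97%, with 2 false calls. The simulated noise was independent, with the same spread on every array, and the change was equal in both exposed groups. The arrays here were not equally alike, so these rates need not hold for them.

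The groups compared, the 31 gene lists and the members named were chosen with earlier results of these data known. Named genes were up to 12 per direction, called in both exposed groups without overlap. Missing places were filled from the pooled contrast, also without overlap and with both exposed groups on the same side of untreated. Up to 3 called members of each list were added, and a fixed set: Ins1, Ins2, Gcg, Sst, Pdx1, Mafa, Slc2a2, Pparg, Pdk4, Cd36, Trh, Ambp, Rgs16 and Txnip. Others are marked in the text. Figures were drawn with matplotlib 3.10.9.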

Additional observations from a re-analysis of the deposited data

Results flagged for a closer look

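Withdrawal and treated islets differed from each other, by limma's test of that difference, in 30 of the 54 named genes, where 24.4% of all probe sets did. Most of the named genes had been chosen for being called against untreated islets, so their share cannot be read against that of all probe sets. Values are withdrawal minus treated on the log2 scale. Among the genes higher in exposed islets, the difference was -0.62 for Trh, -0.48 for Sdf2l1, 0.46 for Serpinb1a, -1.06 for Vsnl1, -1.07 for Nnat, -0.61 for Calcb, -0.69 for Col27a1, a fibrillar collagen, -0.69 for Tnfrsf11b, -0.63 for Aass, -0.60 for Pyy, -0.45 for Nfkbia, -0.50 for Scg2, -0.84 for Cplx2 and -0.68 for Rora. Serpinb1a was the 1 of these 14 that was higher after withdrawal.

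Among the genes lower in exposed islets it was 0.63 for Ambp, 0.58 for Rgs16, 0.84 for Txnip, 0.50 for Gpr6, -0.54 for C5h8orf88, -0.48 for Idi1, 0.45 for Srxn1, 0.93 for Fyb1, 1.21 for Fn1, 1.01 for Cartpt and 1.0 for Gal. C5h8orf88 and Idi1 were the 2 of these 11 that were lower after withdrawal. Of the genes not called against untreated islets in the pooled comparison it was -0.58 for Gcg, -1.21 for Sst, -0.66 for Pdx1, -0.31 for Mafa and -0.53 for Pdk4. For these 5, the pooled difference averages groups that lie apart.

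Reg3g stood out for 1 array: treated replicate 2 measured 6.29, the nearest other exposed array 9.58, and this gap was 0.719 of the range over the 6 exposed arrays. By chance the rule flags about 1 of 20 groups, and among the 54 named genes it flagged 1.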

How the results depend on the processing

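Of 286 probe sets differing from untreated islets and 63 differing in both exposed groups, the counts were 144 and 22 on the deposited values, 128 and 23 with arrays centred on their medians, 1265 and 308 with array weights and 56 and 20 when a log2 difference of at least 1 was also required. With 1 term for the 6 exposed arrays the pooled count was 44. The 22 of the 63 that differed between withdrawal and treated islets became 7 of those shared on deposited values, 7 with centring and 72 with array weights. Probe sets without overlap numbered 1314, and 799 and 776 on deposited and centred values. Left out 1 at a time, arrays gave a range of 73 to 1061 for the pooled count, 26 to 181 for both groups and 8 to 44 for withdrawal against treated. For both groups the count was 181 without treated replicate 1, 121 without treated replicate 2, 38, 26 and 33 without withdrawal replicates 1, 2 and 3, and 26 and 41 without untreated replicates 1 and 3. The cause was not tested. A filter on dim probe sets and the trend and robust settings stayed within 1.5 times of both counts. With the replicate number as a block the counts were 303 and 66. Correlations of deviations from group means ran from -0.211 to 0.383 for same-numbered and from -0.373 to 0.331 for differently numbered arrays. The ranges overlap, and deviations within a group of 3 offset each other, so this cannot decide whether the numbers pair the samples.

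Of the named genes' values under these alternatives, 800 kept direction and call, 151 lost the call, 3 gained it and 12 changed sign. All 12 concern uncalled genes: Gcg at -0.01 with array weights, -0.05 without treated replicate 1 and -0.01 without withdrawal replicate 1; Pdx1 at 0.08 on deposited and 0.07 on centred values; Slc2a2 at -0.06, -0.03 and -0.02 without treated replicate 3, withdrawal replicate 1 and untreated replicate 1; Cd36 at 0.04 on deposited and centred values and 0.0 without treated replicate 3, with a range from -0.18 to 0.15, the latter without untreated replicate 1. Intensity near the top of the scale limits the insulin genes.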
